A study of Mus musculus with 6 samples.

Results

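Between the early and the late stage of a demyelinated lesion, microglia sorted from the mouse corpus callosum carried 34 genes that were lower in all day 10 libraries than in any day 3 library. They were led by the anion transporter gene Slc26a11, the dystroglycan-modifying kinase gene Pomk and the tetraspanin gene Tspan18, which had the widest spacing between the time points. The 34 genes were chosen by their values. From the count table, CPM was taken (a gene's count divided by its library total and scaled to the same sum in every library), and a gene was kept when its lowest day 3 CPM was at least 10 and at least 2 times its highest day 10 CPM. Of 24984 genes in the table, 4242 had at least 10 CPM in every day 3 library, and 38 of these (0.896%) met the rule. Of these 38, 4 were left out because their symbols begin with Gm or end in Rik, which gave the 34. Their difference between the time points is therefore what chose them, and it is given here as a description with no test.

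Microglia are the resident macrophages of the brain. After myelin is lost they clear its debris, divide, and pass through a change of state that is known to bear on the return of myelin. In the resting brain they hold a typical set of surface receptors and depend on transforming growth factor signalling, and after injury they take up and export large amounts of lipid.

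Polyadenylated RNA was measured in 6 libraries, each from 1 male wild-type C57BL/6J mouse aged 10 weeks, as the design gives 3 mice per time point. Into the corpus callosum of every mouse, 2 µl of 1% lysolecithin (LPC) had been injected, a detergent-like lipid that destroys myelin. They were killed 10 days (LPC day 10, 3 libraries) or 3 days (LPC day 3, 3 libraries) afterwards. Cells were sorted as live, CD11b positive, CD45 low, and negative for Ly6G and CD3, a gate on surface staining that leaves out Ly6G-positive neutrophils and CD3-positive T cells. No uninjured or vehicle-injected library was analysed here, so a level at day 3 cannot be placed against a resting one.

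Library totals ran from 5890081 to 9021700 counts at LPC day 10 and from 7005939 to 9212197 at LPC day 3. Defining markers of the labelled cell type were abundant in every library. Csf1r, the receptor gene on which microglia depend, had 8922, 2448 and 9364 CPM at LPC day 10 and 6418, 6022 and 5027 CPM at LPC day 3. P2ry12, a purinergic receptor gene of resting microglia, had 491.4, 1125 and 4277 CPM at LPC day 10 and 1619, 2191 and 1154 CPM at LPC day 3. LPC day 10 replicate 3 stood apart, with 10416 genes having a count against 12691 to 16013 in the others. LPC day 3 replicate 3 held nearly all the counts of neutrophil markers (7 in the table, summed 99.9 CPM, at most 0.170 CPM in any other library) and had the highest sum of monocyte markers (105.1 CPM, 1.02 to 20.8 CPM elsewhere). Markers of other cells were not confined to that library. Oligodendrocyte markers summed to 164.5 CPM in LPC day 10 replicate 1, against 9.85 to 74.4 CPM elsewhere. Oligodendrocyte progenitor markers summed to 150.1 CPM in the same library, against 0.999 to 34.7 CPM elsewhere. In bulk libraries, fewer cells that express a gene and less RNA per cell cannot be told apart.

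**Figure D1:**
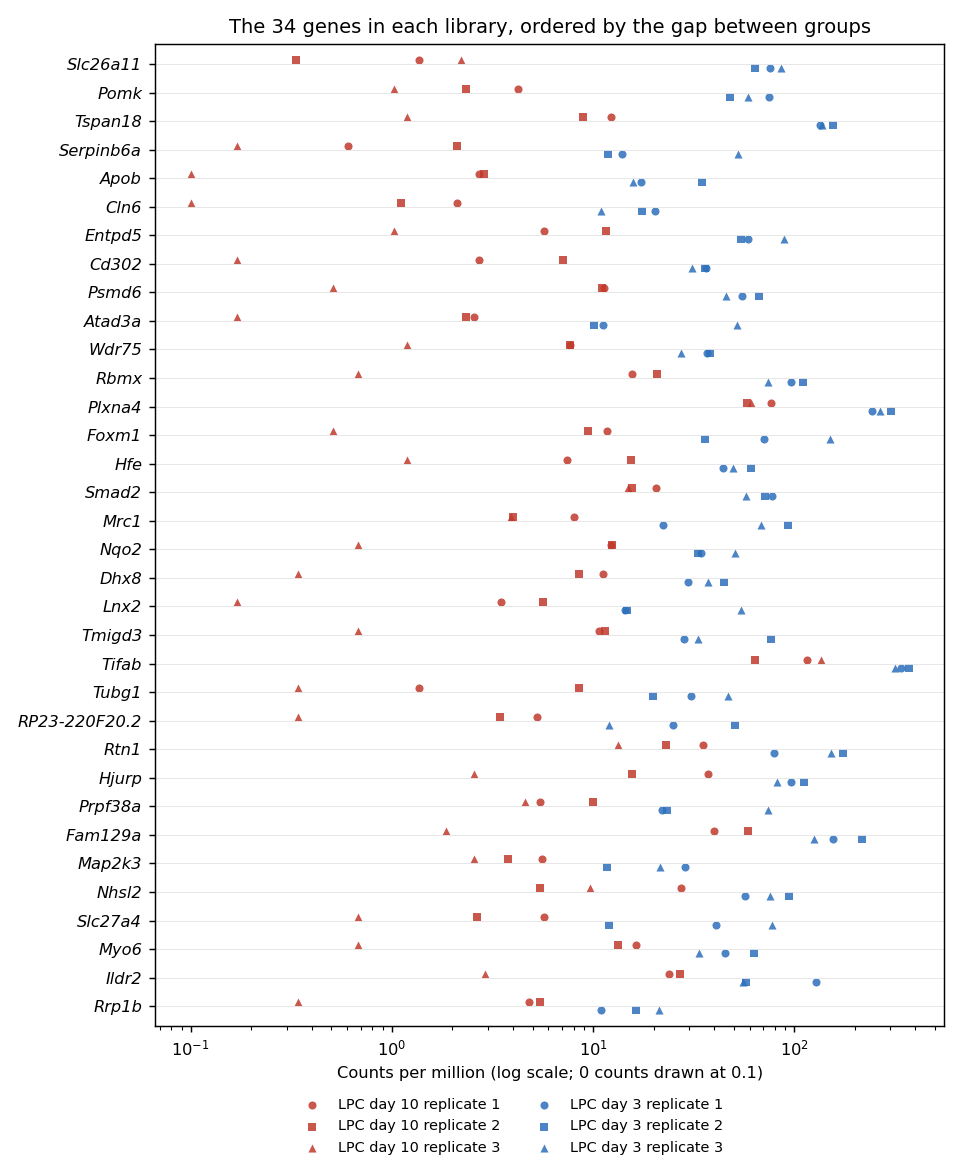
CPM (log scale) of the 34 genes, 1 row per gene and 0 counts drawn at 0.1, with LPC day 10 libraries in red above LPC day 3 libraries in blue and marker shapes for replicates 1, 2 and 3. Genes are ordered by the lowest day 3 value over the highest day 10 value, 28.8 for Slc26a11 at the top and 2.02 for Rrp1b at the bottom, and the triangle of LPC day 10 replicate 3 is the lowest point in 30 of the 34 rows.

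The spacing between the groups varied widely. The lowest day 3 CPM over the highest day 10 CPM, called the gap here, had a median of 2.74 and ran from 2.02 (Rrp1b) to 28.8 (Slc26a11). It was at least 5 in 6 genes, at least 3 in 14 and under 2.5 in 14. The genes nearest inside the limit were Rrp1b (2.02), Ildr2 (2.04) and Myo6 (2.07). Those nearest outside it were Epb41l3 (1.999), which encodes a membrane-skeleton protein, the metalloprotease gene Mmp14 (1.985) and Trim13 (1.976), so the limit does not fall at a break in the values. The same rule with the time points exchanged was met by 47 of 3401 genes (1.38%), or 39 after the same symbols were left out. Groups that did not overlap were common in both directions at this sample size: of 10535 genes with enough counts for the group model, 436 (4.14%) had every LPC day 10 value below every LPC day 3 value, and 417 (3.96%) had the opposite order. Among the 4242 genes at 10 CPM or more in every day 3 library, 284 (6.69%) had every LPC day 10 value below every LPC day 3 value.

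Promoter sequence was available for 24 of the 34 genes, with 29 promoters in the RefSeq table (GRCm38.p6). Not matched were Slc26a11, Pomk, Tspan18, Atad3a, Plxna4, Foxm1, Smad2, Tubg1, RP23-220F20.2 and Nhsl2. The 250 bases before each start site were searched on both strands for CCAAT, the box bound by NF-Y, and TTTGAA, the letters of the cell cycle homology region (CHR) found in promoters of mitotic genes. The 4 promoters shown are from genes of cell division, ribosome assembly, splicing and the cell surface, with CCAAT and TTTGAA or their reverse complements in capitals. Each is written 5′ to 3′ on the gene's strand and stops before the first exon in GENCODE M21.
Hjurp (chr1:88277634-88277829, minus strand): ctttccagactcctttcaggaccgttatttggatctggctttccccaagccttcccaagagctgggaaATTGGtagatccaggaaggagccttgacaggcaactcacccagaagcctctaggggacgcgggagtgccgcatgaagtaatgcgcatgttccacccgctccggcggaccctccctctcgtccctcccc
Wdr75 (chr1:45794916-45795165, plus strand): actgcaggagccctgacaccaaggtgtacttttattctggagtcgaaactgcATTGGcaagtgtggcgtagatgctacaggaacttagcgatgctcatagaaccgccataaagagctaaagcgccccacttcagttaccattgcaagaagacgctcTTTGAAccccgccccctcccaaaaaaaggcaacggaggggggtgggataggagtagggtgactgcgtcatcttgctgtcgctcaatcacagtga
Rbmx (chrX:57393037-57393286, minus strand): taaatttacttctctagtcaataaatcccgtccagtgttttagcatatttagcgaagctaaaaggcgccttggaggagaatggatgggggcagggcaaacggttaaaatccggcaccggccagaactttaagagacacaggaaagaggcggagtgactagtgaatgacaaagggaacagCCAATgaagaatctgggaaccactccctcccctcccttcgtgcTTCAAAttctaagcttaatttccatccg
Mrc1 (chr2:14229164-14229391, plus strand): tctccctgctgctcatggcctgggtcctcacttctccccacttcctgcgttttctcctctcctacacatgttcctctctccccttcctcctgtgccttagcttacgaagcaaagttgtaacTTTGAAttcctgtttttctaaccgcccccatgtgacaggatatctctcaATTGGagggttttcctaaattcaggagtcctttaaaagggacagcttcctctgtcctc

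The capitals mark a CCAAT match in all 4 of these promoters and a TTTGAA match in Wdr75, Rbmx and Mrc1. These 4 were picked by name and do not stand for the set, as others such as Cd302, Dhx8 and Tifab had neither match. Over the set, CCAAT was present in 12 of 29 promoters (41.4%), against 33.2% of 4445 promoters of the genes at 10 CPM or more in every day 3 library and 33.8% of all 32851 promoters. TTTGAA was present in 8 of 29 (27.6%), against 9.88% and 16.0%. Of the other letters searched, E2F-type TTCCCGC or TTGGCGC were found in 3 promoters (10.3%, against 9.83% and 5.62%) and PU.1-type GAGGAAG in 3 (10.3%, against 12.4% and 10.6%). ETS-type CGGAAG was found in 6 (20.7%, against 26.1% and 13.6%), the E-box CACGTG in 1 (3.45%, against 9.11% and 6.02%), and CCGCCC of the SP and KLF type in 16 (55.2%, against 59.96% and 32.7%). The promoters had a median GC content of 54.4%, against 61.2% for the genes at 10 CPM or more in every day 3 library and 52.4% for all promoters. Overlapping matches of different motifs were each counted. Matches are letters in a window, and no binding was measured here.

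Surface proteins and transporters made up 9 of the 34, and they include the widest gap. Slc26a11 (ENSMUSG00000039908, chromosome 11, 119355557 to 119381079, GRCm38) encodes an anion exchanger of the sulfate transporter family. It had 1.36, 0.333 and 2.21 CPM at LPC day 10 (replicates 1, 2 and 3, the order kept throughout), from 9, 3 and 13 counts, against 75.9, 63.5 and 85.5 CPM at LPC day 3. The day 3 libraries lay within 1.35-fold of each other, and no other gene of the 34 had so wide a gap. Its log2 fold change (day 10 over day 3, edgeR) was −5.61, and −6.90 without LPC day 10 replicate 3. Slc26a11 was the lowest of the 3 day 10 libraries in replicate 2, not replicate 3, which held for only 4 of the 34 genes. Sgsh, the sulfamidase gene that lies beside it on the chromosome, was named after its values were seen and had 0.452, 0.222 and 0 CPM at LPC day 10, against 8.69, 3.28 and 0.434 CPM at LPC day 3.

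Tspan18 (ENSMUSG00000027217, chromosome 2, 93201760 to 93334505), a tetraspanin that organises membrane proteins and calcium entry in endothelial cells, had 12.2, 8.87 and 1.19 CPM at LPC day 10, against 134.8, 155.9 and 136.9 CPM at LPC day 3. Its day 3 values differed by only 1.16-fold, the tightest of the 34, and its log2 fold change was −4.48. The 7 endothelial markers in the table, 2 of them with no count in any library, summed to 97.4, 102.3 and 10.9 CPM at LPC day 10 and 35.6, 13.6 and 21.1 CPM at LPC day 3. The part of endothelial cells in the Tspan18 values was not tested. Cd302 encodes a small C-type lectin receptor of phagocytes. It had 2.71, 7.09 and 0.170 CPM at LPC day 10, against 36.3, 36.1 and 31.0 CPM at LPC day 3 (gap 4.38), so that it was also even at day 3 and uneven at day 10.

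Plxna4, which encodes a plexin that receives semaphorin guidance signals, gave 1 of the evenest patterns. It had 76.7, 58.1 and 61.1 CPM at LPC day 10, against 244.2, 302.5 and 266.0 CPM at LPC day 3, and a log2 fold change of −1.98. In CPM by column total it was even at both time points, unlike most of the set. On that scale it was 1 of only 2 genes, with Smad2, whose day 10 libraries all lay within 2-fold of each other. The evenness depends on the scaling. RLE, another way to scale library sizes, gave the day 10 libraries factors of 1.64, 1.14 and 0.429. On RLE-scaled sizes neither Plxna4 nor Smad2 met the rule. Hfe, the gene altered in hereditary iron overload and a relative of MHC class I, had 7.39, 15.4 and 1.19 CPM at LPC day 10, against 44.2, 60.9 and 49.4 CPM at LPC day 3.

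Mrc1 encodes the mannose receptor CD206, a marker of the macrophages of brain borders that is also seen in some activated microglia. It had 7.99, 3.99 and 3.90 CPM at LPC day 10, against 22.2, 93.5 and 68.3 CPM at LPC day 3, a spread of 4.21-fold among the day 3 libraries. The other 5 border-macrophage markers in the table (Cd163, Pf4, Cbr2, F13a1 and Ms4a7) had too few counts for the group model, which limits any comparison with Mrc1. They summed to 0.754, 3.21 and 0 CPM at LPC day 10 and 5.06, 0.143 and 12.6 CPM at LPC day 3, the last of these from Cbr2 alone. In LPC day 3 replicate 2, where Mrc1 was highest, 4 of the 5 were at 0. Mrc1 was 1 of 8 genes of the 34 whose day 3 values spread over more than 3-fold.

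The remaining surface genes were more uneven. Slc27a4, which encodes a long-chain fatty acid transporter with acyl-CoA synthetase activity, had 5.73, 2.66 and 0.679 CPM at LPC day 10, against 41.0, 11.99 and 77.1 CPM at LPC day 3. Its 6.43-fold spread at day 3 was the widest of the set. Tmigd3 (2.49) and Ildr2 (2.04), both encoding membrane proteins with immunoglobulin-like domains, had narrow gaps. Tmigd3 had 10.7, 11.4 and 0.679 CPM at LPC day 10, against 28.4, 76.9 and 33.2 CPM at LPC day 3. It shares 779 exon bases on the same strand with Adora3, the adenosine A3 receptor gene, which had 50.0, 15.1 and 6.62 CPM at LPC day 10 and 34.3, 47.8 and 15.2 CPM at LPC day 3, so Adora3 did overlap between the groups. Ildr2 had 23.8, 27.2 and 2.89 CPM at LPC day 10, against 128.8, 57.5 and 55.5 CPM at LPC day 3.

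Genes of the endoplasmic reticulum, of glycan handling and of lipoproteins numbered 5 and had a median gap of 5.20, against 2.74 over the 34. Pomk (ENSMUSG00000037251, chromosome 8, 25980604 to 25994133) encodes the kinase that phosphorylates O-mannose on dystroglycan, the receptor for matrix laminin. It had 4.22, 2.33 and 1.02 CPM at LPC day 10, from 28, 21 and 6 counts, against 74.9, 48.0 and 58.6 CPM at LPC day 3, with a gap of 11.4 and a log2 fold change of −4.71. Entpd5 encodes a nucleoside diphosphatase that supports the folding of N-glycosylated proteins. It had 5.73, 11.5 and 1.02 CPM at LPC day 10, against 58.8, 54.5 and 89.2 CPM at LPC day 3.

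Cln6 encodes a membrane protein of the endoplasmic reticulum whose loss causes a neuronal ceroid lipofuscinosis, a lysosomal storage disease. It had 2.11, 1.11 and 0 CPM at LPC day 10, against 20.23, 17.4 and 11.0 CPM at LPC day 3. Apob, the gene of the structural protein of low-density lipoprotein, had 2.71, 2.88 and 0 CPM at LPC day 10, against 17.4, 34.7 and 15.8 CPM at LPC day 3. Cln6 and Apob were the only genes of the 34 with no count in a library, LPC day 10 replicate 3, where a count of 0 allows up to 0.509 CPM (3 counts of the library total, counting error only). Rtn1, a reticulon gene of the endoplasmic reticulum, had its lowest day 10 value in replicate 3 too, with 35.1, 22.9 and 13.2 CPM at LPC day 10, against 78.8, 175.3 and 152.3 CPM at LPC day 3.

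Cell division was represented by Foxm1, Hjurp and Tubg1. Foxm1 (ENSMUSG00000001517, chromosome 6, 128362967 to 128376146) encodes the transcription factor that drives genes of mitosis. It had 11.8, 9.42 and 0.509 CPM at LPC day 10, against 70.5, 35.97 and 149.8 CPM at LPC day 3, and a log2 fold change of −3.86, or −3.01 without LPC day 3 replicate 3, the library with neutrophil and monocyte markers. Hjurp, the chaperone gene that loads the centromeric histone, had 37.4, 15.5 and 2.55 CPM at LPC day 10, against 96.4, 112.0 and 82.4 CPM at LPC day 3. Tubg1 encodes gamma-tubulin, from which microtubules grow at the centrosome, and had 1.36, 8.53 and 0.340 CPM at LPC day 10, against 30.7, 19.8 and 46.8 CPM at LPC day 3. Its close copy Tubg2 had no count in any library. Leaving out LPC day 10 replicate 2 moved the log2 fold change of Tubg1 from −3.32 to −5.44.

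**Figure D2:**
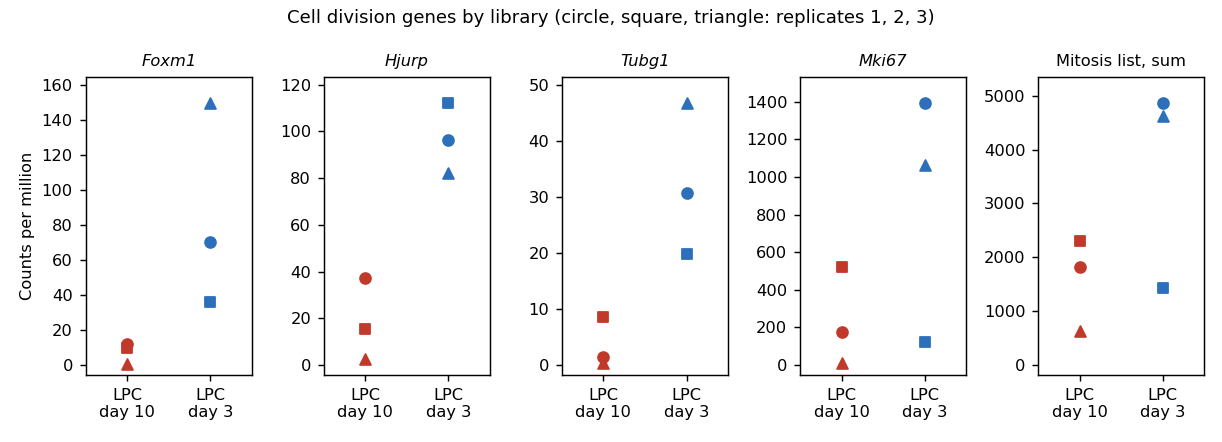
CPM (linear scale, each panel with its own range) of Foxm1, Hjurp, Tubg1, Mki67 and the sum of the mitosis list, with LPC day 10 on the left and LPC day 3 on the right of each panel and circle, square and triangle for replicates 1, 2 and 3. The groups part in the first 3 panels, whereas for Mki67 and the list the square of LPC day 3 replicate 2 (122.9 and 1434 CPM) lies among the day 10 values.

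Most other genes of mitosis did not meet the rule, and most were lowest at day 3 in replicate 2. Of 81 tested genes on a list of mitosis and chromosome segregation, 70 had a negative log2 fold change (median −1.66, against −0.0023 over all genes tested). In 11 of them (13.6%, against 4.14% of all genes tested) the groups did not overlap, and Foxm1 alone met the rule. In 61 of the 81 the lowest day 3 value was in replicate 2, against 35.9% of the 4242 genes at 10 CPM or more throughout day 3. In 65 of the 81 the value in LPC day 3 replicate 2 lay below the highest day 10 value, a share not computed over all genes. Overlap was the usual case over all genes tested, with only 4.14% wholly lower and 3.96% wholly higher at day 10. The count of 65 is therefore not read as particular to the list. The 94 listed genes in the count table summed to 1813, 2305 and 630.2 CPM at LPC day 10, against 4861, 1434 and 4633 CPM at LPC day 3, so as a whole its groups overlapped. Mki67, which encodes the proliferation antigen Ki-67, had 177.0, 520.3 and 8.32 CPM at LPC day 10, against 1392, 122.9 and 1062 CPM at LPC day 3.

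Splicing and ribosome assembly gave 5 genes, all with their lowest value in LPC day 10 replicate 3. Rbmx, which encodes an RNA-binding protein of the nucleus that takes part in splicing, had 15.5, 20.8 and 0.679 CPM at LPC day 10, against 96.8, 109.9 and 73.7 CPM at LPC day 3. A retrotransposed copy, Rbmxl1, had 20.7, 31.1 and 9.85 CPM at LPC day 10 and 19.1, 18.1 and 29.0 CPM at LPC day 3, and the counting of reads common to both copies was not stated in the labels or headers. Wdr75, a part of the machinery that processes ribosomal RNA in the nucleolus, had 7.69, 7.65 and 1.19 CPM at LPC day 10, against 36.8, 38.0 and 27.4 CPM at LPC day 3.

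Dhx8 encodes a helicase that releases spliced RNA from the spliceosome and had 0.340 to 11.2 CPM at LPC day 10, lowest in replicate 3, against 29.7 to 44.8 CPM at LPC day 3. Prpf38a, another spliceosome gene, had 4.58 to 9.98 CPM at LPC day 10, against 21.9, 23.4 and 73.7 CPM at LPC day 3. Rrp1b, a nucleolar gene, had the narrowest gap and 0.340 to 5.43 CPM at LPC day 10, against 11.0 to 21.2 CPM at LPC day 3. A splicing list, which holds none of the 34, had 28 of 54 tested genes negative (median −0.11). A ribosome-assembly list, which holds only Rrp1b of the 34, had 13 of 26 negative (median −0.02).

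Signalling gave 4 genes, and they include the highest level per length of the set. Tifab, which encodes an inhibitor of the TIFA and TRAF6 branch of innate immune signalling, had 115.5, 63.7 and 135.5 CPM at LPC day 10, against 339.1, 369.7 and 315.7 CPM at LPC day 3. It had the highest level per length of the 34, a median of 33.0 FPKM (the authors' deposited values, scaled by depth and transcript length) at LPC day 10 and 97.0 FPKM at LPC day 3. Its log2 fold change was −1.52, the smallest of the 34, but −2.29 and not the smallest without LPC day 10 replicate 3. Tifab was with Slc26a11 the only gene whose highest day 10 value was in replicate 3.

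Smad2, the gene of a receptor-activated mediator of transforming growth factor signalling, had 20.5, 15.6 and 14.9 CPM at LPC day 10, against 77.4, 71.8 and 57.7 CPM at LPC day 3. It was tight within both groups in CPM by column total, but did not meet the rule on RLE-scaled sizes. Its partner Smad3, named after its values were seen, had 156.2, 58.0 and 49.7 CPM at LPC day 10 and 175.1, 205.1 and 113.3 CPM at LPC day 3, with overlap. Map2k3 encodes a kinase that activates p38 and had 2.55 to 5.58 CPM at LPC day 10, against 11.7 to 28.7 CPM at LPC day 3. Lnx2, a ubiquitin ligase gene, had 0.170 to 5.65 CPM at LPC day 10, against 14.4, 14.7 and 54.6 CPM at LPC day 3.

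The remaining 7 genes with a known role serve protein turnover, mitochondria, redox enzymes and the cytoskeleton. Psmd6 encodes a lid subunit of the proteasome and had 11.3, 11.1 and 0.509 CPM at LPC day 10, against 55.2, 66.5 and 45.9 CPM at LPC day 3. Fam129a, also called Niban1, a gene of the stress response, was likewise lowest in LPC day 10 replicate 3, with 39.9, 58.6 and 1.87 CPM at LPC day 10, against 156.5, 217.5 and 125.1 CPM at LPC day 3. In 6 of these 7 genes LPC day 10 replicate 3 was the lowest library. Atad3a, which encodes an ATPase of the mitochondrial inner membrane, had 0.170 to 2.56 CPM at LPC day 10, against 11.2, 10.1 and 52.1 CPM at LPC day 3. Myo6, the gene of the myosin that walks toward the minus end of actin, had 0.679 to 16.3 CPM at LPC day 10, against 33.7 to 62.9 CPM at LPC day 3. Nhsl2 had 27.3, 5.43 and 9.68 CPM at LPC day 10, against 57.2 to 94.6 CPM at LPC day 3.

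Serpinb6a and Nqo2 are neighbours that share sequence. Serpinb6a (chromosome 13, 33917918 to 34002794), which encodes an intracellular inhibitor of serine proteases, spans Nqo2 (33964687 to 33988443), which encodes a quinone reductase, and exons of the pair overlap by 762 bases on opposite strands. Serpinb6a had 0.603, 2.11 and 0.170 CPM at LPC day 10, against 13.9, 11.8 and 52.6 CPM at LPC day 3. Nqo2 had 12.2, 12.4 and 0.679 CPM at LPC day 10, against 34.5, 33.4 and 50.6 CPM at LPC day 3. Both were highest in LPC day 3 replicate 3. Library strand was not stated in the labels or headers, so reads in the shared bases cannot be assigned to either. The gene Ripk1, which shares 241 exon bases with Serpinb6a, had 62.0, 20.9 and 97.3 CPM at LPC day 10 and 25.5, 72.9 and 38.5 CPM at LPC day 3. The last of the 34, RP23-220F20.2, carries a clone-based name in the deposited table and is Gm45716 in GENCODE M21, a protein-coding model sharing 280 exon bases with Mmd. It had 5.28, 3.44 and 0.340 CPM at LPC day 10, against 24.9, 51.0 and 12.05 CPM at LPC day 3, and Mmd had 4.22, 5.54 and 0 CPM at LPC day 10 and 10.0, 55.7 and 2.497 CPM at LPC day 3.

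**Figure D3:**
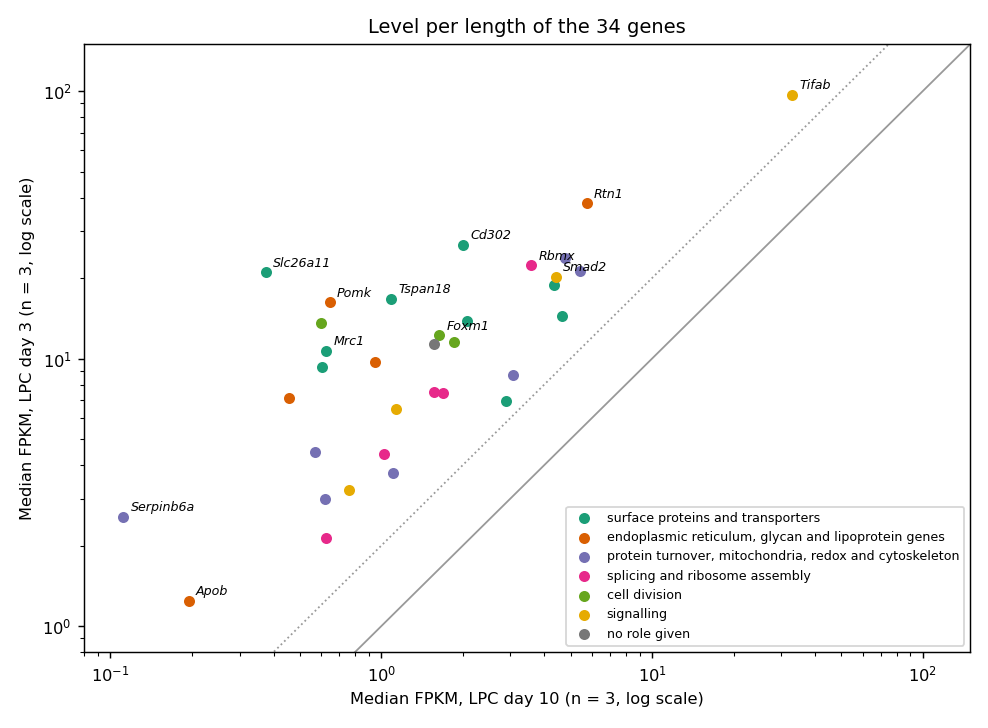
Median FPKM of each of the 34 genes at LPC day 10 (horizontal, n = 3) and LPC day 3 (vertical, n = 3), both on log scales, coloured by role, with the solid line at equal values and the dotted line at a 2-fold difference. All points lie above the dotted line, as the rule requires. They run from Serpinb6a (0.111 FPKM) to Tifab (33.0 FPKM) at LPC day 10 and from Apob (1.25 FPKM) to Tifab (97.0 FPKM) at LPC day 3. The roles are mixed along the range.

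Per length, the genes covered a wide range of levels. The median FPKM over the 3 libraries ran from 0.111 to 33.0 at LPC day 10 and from 1.25 to 97.0 at LPC day 3, with medians over the 34 genes of 1.35 and 11.0 FPKM. After Tifab, Rtn1 stood next at LPC day 3 with 38.05 FPKM (5.73 at LPC day 10), and Apob was lowest with 1.25 FPKM (0.195 at LPC day 10). All 34 genes were protein coding in GENCODE M21, as were 96.0% of the 4242 genes at 10 CPM or more in every day 3 library. Their summed exon length had a median of 4940 bases, against 5996.5 bases for those genes. They lay on 15 chromosomes, with 5 genes on chromosome 11.

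**Figure D4:**
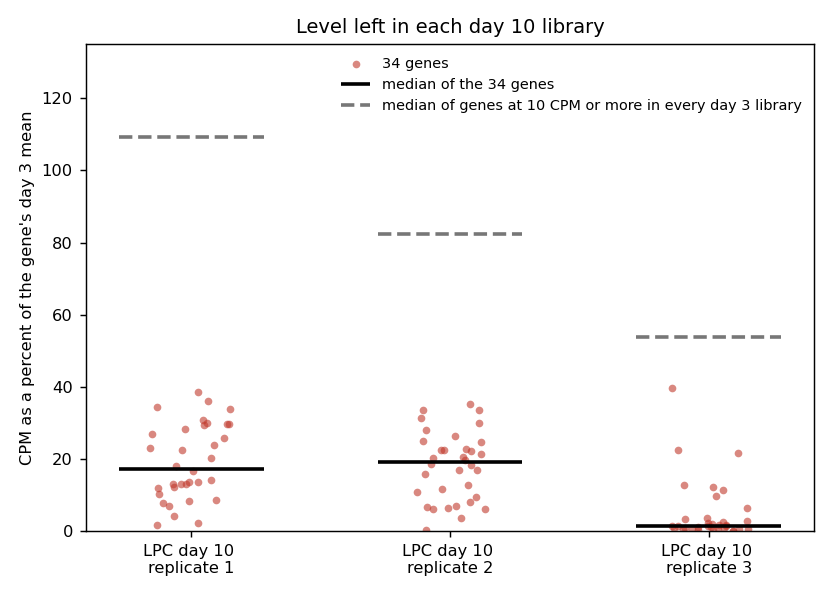
Level of each of the 34 genes in the LPC day 10 libraries as a percent of its own day 3 mean (points), with the median of the 34 genes (solid line) and of the 4242 genes at 10 CPM or more in every day 3 library (dashed line). The medians of the 34 were 17.3%, 19.2% and 1.54%, against 109.2%, 82.4% and 53.9% for the larger set, a difference that the rule itself favours.

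The rule put the same upper limit on all 3 day 10 values of a gene, and below it they were uneven. The 4242 genes used for comparison had no limit at day 10, so lower levels in the 34 are partly set by the rule. LPC day 10 replicate 3 held the lowest value in 30 of the 34 genes (88.2%), against 2297 (54.1%) of the 4242 genes at 10 CPM or more in every day 3 library. In 17 of the 34 its level was under 1 CPM, which held for 11.1% of the 4242. The median gene of the 34 stood at 17.3% of its day 3 mean in replicate 1, 19.2% in replicate 2 and 1.54% in replicate 3. LPC day 10 replicate 3 is the library with the fewest genes detected, and 26.3% of the 4242 genes were under 10% of their day 3 mean in it, against 0.660% and 1.39% in replicates 1 and 2. The part of that library in these values was not tested. In 32 of the 34 genes the highest day 10 value was in replicate 1 or 2, so their gap was the same with and without replicate 3. Replicate 3 held the highest day 10 value in the other 2 (5.88%), against 29.9% of the 4242. The set as a whole did change with that library, as 60 genes met the rule without it. The median log2 fold change of the 34 was −2.63 without LPC day 10 replicate 3, against −2.95 with it. Replicates 1 and 2 lay within 2-fold of each other in 24 of the 34.

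The order within day 3 was more even, with the highest value in replicate 1 for 6 genes, in replicate 2 for 17 and in replicate 3 for 11. The day 3 libraries lay within 2-fold of each other in 20 of the 34 genes (58.8%), against 41.6% of the 4242, a share that the rule itself favours. In Serpinb6a, Atad3a, Foxm1, Lnx2 and Prpf38a, 5 of the 34, replicate 3 was at least 2-fold above both other day 3 libraries, which held for 7.10% of the 4242. That is the library with 99.9 CPM of neutrophil markers, and the part of those cells in these 5 values was not tested. Without it, the log2 fold change was −3.66 for Serpinb6a, −2.77 for Atad3a, −3.01 for Foxm1, −2.31 for Lnx2 and −1.60 for Prpf38a, against −4.86, −4.14, −3.86, −3.41 and −2.59 with it.

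**Figure D5:**
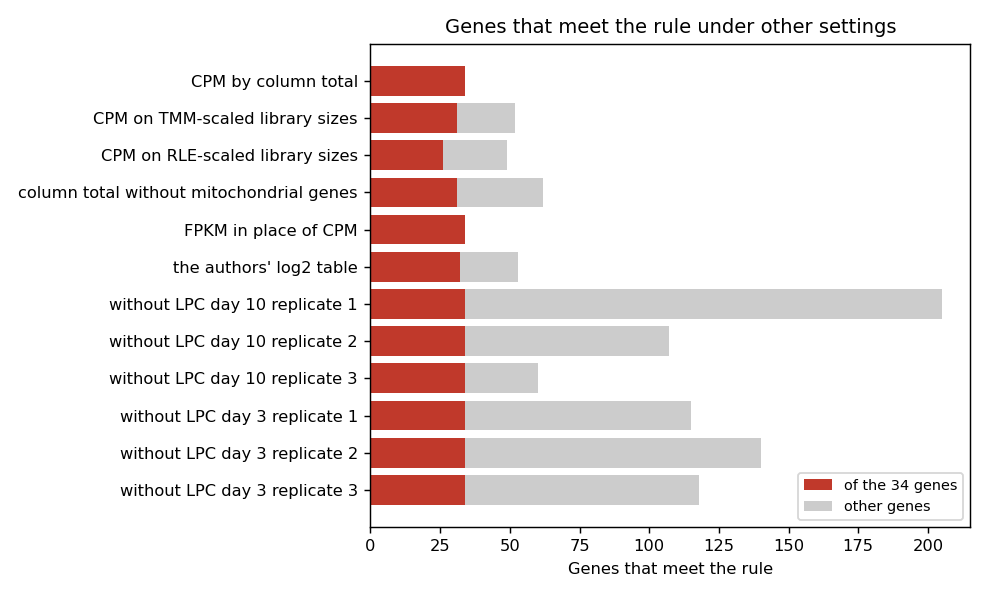
Number of genes that meet the rule (horizontal, whole genes) under other scalings and with each library left out, split into the 34 genes (red) and other genes (grey). Scaling changes keep 26 to 34 of the 34 and add up to 31 other genes, and all 34 are kept only with FPKM, which keeps the ratios of CPM. Leaving out LPC day 10 replicate 1 lets in the most, 205 genes in all.

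Membership depended on how the libraries were scaled. With CPM on TMM-scaled library sizes 52 genes met the rule, 31 of them among the 34, and with RLE-scaled sizes 49 met it, 26 of them among the 34. With genes of the mitochondrial genome taken out of the library totals, which held 11.1%, 39.0% and 17.6% of counts at LPC day 10 and 30.7%, 33.8% and 35.8% at LPC day 3, 62 genes met it and 31 of the 34 were kept. On the authors' log2 values 53 met it, with 32 of the 34. The same 25 genes met the rule under all of these 4 scalings. The FPKM table gave the same 34 as CPM by construction, since each gene's FPKM was its CPM times a constant for that gene. Those lost at least once were Tifab, Plxna4, Smad2, Ildr2, Mrc1, Prpf38a, Rrp1b, Atad3a and Map2k3, and Rrp1b was lost in all 4.

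The group model was run over all genes with enough counts, and its values for the 34 are given as a description. All 34 had enough counts to be tested, and their log2 fold changes ran from −5.61 to −1.52 with a median of −2.95. In edgeR's quasi-likelihood test 0 of the 34 and 0 of all 10535 genes (0%) were called lower at an adjusted p under 0.05, so none of the mitosis, splicing or ribosome-assembly lists was, with 145 genes (1.38%) lower at an unadjusted p under 0.05, 22 of the 34 among them. DESeq2 called 19 genes lower (0.18%), and 7 of these were among the 34: Slc26a11, Tspan18, Pomk, Serpinb6a, Slc27a4, Foxm1 and Entpd5. Since the rule chose the 34 on this contrast, these counts describe the set and do not test it.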

How the data were processed

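Of the deposited tables, 3 were used. Per the submitters' processing notes, the reads were handled with genome build GRCm38, limma 3.30.8, edgeR 3.16.5, R 3.3.2 and STAR 2.5.2a. The counting program, annotation release and strand were not stated in the labels or headers. The authors deposited raw counts per Ensembl gene, a log2 table that equals log2 of the count plus 0.5 plus a constant per library (largest deviation 0.00954), and FPKM per gene in columns named by time point only. Symbols came from the FPKM table (24969 of 24984 identifiers), positions and exons from GENCODE M21 (24893 matched), and promoters from RefSeq (GRCm38.p6).

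From the counts, CPM was computed by column total. The cDNA was amplified before library preparation, per the labels' protocols, and no molecular identifiers were counted, so floors (3 counts) cover counting error only. The group model was edgeR 4.0.16 (R 4.3.3), with genes kept by filterByExpr at 10 counts, TMM scaling and the quasi-likelihood F-test on group alone (Benjamini-Hochberg over 10535 genes, called under 0.05), and the procedure was tested on simulated data. DESeq2 1.42.0, limma-voom (limma 3.58.1), other scalings, no low-count filter, a replicate block and leaving out each library were alternatives. The members, lists and roles were chosen with earlier results of these data known, and every member is named. P-values measure the spread between 3 libraries per group, 1 mouse each.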

Additional observations from a re-analysis of the deposited data

How the results depend on the processing

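The rule is sensitive to its own limits. Against 34 genes, it was met by 54 at a floor of 5 CPM, 99 with no floor, 74 at a 1.5-fold gap and 14 at a 3-fold gap, and by 52 with TMM-scaled sizes, 62 without mitochondrial genes in the totals and 53 in the authors' log2 table, which was added after the data were seen. Leaving out a library makes the rule easier to meet, and gave 60 to 205 genes. The mirrored rule (39 genes) was met by 21 at a floor of 20 CPM, 133 with no floor, 85 at a 1.5-fold gap and 11 at a 3-fold gap, and by 68 to 237 with a library left out. Genes called lower by edgeR numbered 0, against 5 with no low-count filter (Slc26a11 and Tspan18 among them), 19 with DESeq2 and 1 with limma-voom (mt-Rnr1), and 0 to 4 with a library left out. With LPC day 10 replicate 1 left out, edgeR's adjusted p for Tspan18 was 0.0424. That fit also called Bahd1 and BC046401, which are not among the 34. The other fits with a library left out called none of the 34. Tspan18 was chosen on this contrast, so its p-value describes the gene and does not test it. Of 340 recomputed log2 fold changes of the 34 genes, 11 moved by more than the spread between replicates. That spread, the within-group standard deviation of a gene's log2 CPM, was wide, with a median of 1.11 over the 34. Large shifts could therefore go uncounted, such as that of Lnx2 from −3.41 to −2.31 without LPC day 3 replicate 3. The low count of moved values is thus weak evidence of stability. All 340 were negative, a sign that follows from how the rule chose the genes. RLE scaling moved the median of all genes by 0.13 on the log2 scale. Same-numbered libraries did not deviate together (correlations 0.07, −0.04 and 0.01), and the replicate block called 0 genes lower (median log2 fold change of the 34 −3.26). The counts at low day 10 levels, often under 10, limit how well a fold change is known.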

Other observations

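Another 20 genes had the same spacing but a lowest day 3 level between 5 and 10 CPM, below the floor of the rule. The widest gap among them was that of Hist1h2bn, a replication-dependent histone gene, which had 0.151, 0.111 and 0 CPM at LPC day 10, against 7.81, 6.71 and 12.3 CPM at LPC day 3. Birc5, which encodes survivin, a subunit of the complex that steers chromosome segregation, came next with 0.301, 0.222 and 0.340 CPM at LPC day 10, against 8.91, 6.28 and 31.6 CPM at LPC day 3. Cdca2 and Ttk, also genes of mitosis, were among the 20, with gaps of 3.44 and 2.43. Map2k6, which encodes the closest relative of the Map2k3 product, had 2.86, 3.66 and 0 CPM at LPC day 10, against 27.2, 11.0 and 7.49 CPM at LPC day 3. These genes were chosen after their values were seen and are given as values only.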
